A study of Mus musculus with 2 samples.

Results

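FGF2 cluster 1 is a cluster of cells from mouse salivary gland organoids grown with FGF2, and is read here as stromal. It is led by Cck, Odc1, Tac1, Hgf and Il11. Its members are the 144 genes that the authors' deposited table lists for cluster 1 of the FGF2 library, out of 3058 genes listed there for any cluster and 5154 listed for the control or the FGF2 library. The table gave 75 of the 144 a higher average and 69 a lower average than in all other FGF2 cells, which is 0.374% and 0.344% of the 20056 genes tested. The cluster held 14.1% of the FGF2 cells, a value recovered from the listed shares, and was 1 of 17 clusters.

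Organoids are cultured aggregates that resemble a tissue, and the series profiled their stroma by droplet single-cell RNA sequencing with a 10x 3' kit on an Illumina NextSeq500. The glands of both groups were from outbred CD-1 mice at embryonic day 16, with 7 added in the age label, a number whose meaning and unit the sources used here leave out. The control group was 1 library with 5023 captured cells and the FGF2 group 1 library with 10107 captured cells, per the labels. FGF2 is a fibroblast growth factor, and the sources used here give neither its dose and timing nor how many glands or animals were pooled.

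Fibroblasts of the developing salivary gland surround the branching epithelium and feed it with growth factors. Hgf, hepatocyte growth factor, is made by mesenchyme and acts on its receptor Met on epithelium, and Fgf7 and Ereg act on epithelial receptors in the same paracrine way. Cck and Tac1 are best known as neuropeptide genes, encoding cholecystokinin and the precursor of substance P. Fibroblasts under TGF-beta turn on contractile genes such as Acta2 and Tagln and collagen genes, while FGF signalling through ERK is known to oppose that programme in fibroblasts of several tissues.

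Each entry of the authors' deposited table compares 1 cluster with all other cells of its library. It gives the share of cells with a value above 0 on both sides and the natural log of the ratio of averages, which carry an offset of 1, so that ratios of genes with low averages come out too small. Every entry passed 3 limits, which were an authors' p-value under 0.01, a natural log ratio of 0.25 or more in either direction, and at least 25.1% as the larger of both shares. The clusters were made from the same expression values, so a listed difference describes how the cells were divided and is not a test. The library had no replicate, the number of cells per cluster and the depth per cell are unknown, and no interval can be given. A gene not listed for a cluster may be expressed there at about the level of the other cells.

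The promoters of the leading genes were read first, as sequence that the clustering did not use. Of the 75 higher genes 61, and of the 69 lower genes 37, had a promoter in RefSeq (GRCm38.p6), 250 bases before to 50 bases after the annotated start. The windows of Cck (chr9:121495645-121495944, minus strand) and Tac1 (chr6:7554811-7555110, plus strand), the peptide genes among the leading markers, are shown 5′ to 3′ on the gene's strand. Capitals mark TGCGTCA, a relative of the cyclic AMP response element, and the E-box CACGTG.
Cck: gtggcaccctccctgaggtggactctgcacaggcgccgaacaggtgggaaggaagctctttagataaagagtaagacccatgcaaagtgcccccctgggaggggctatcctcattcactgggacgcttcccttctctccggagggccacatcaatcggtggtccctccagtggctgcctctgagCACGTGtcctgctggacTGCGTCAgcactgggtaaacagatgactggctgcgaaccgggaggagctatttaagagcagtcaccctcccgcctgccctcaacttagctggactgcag
Tac1: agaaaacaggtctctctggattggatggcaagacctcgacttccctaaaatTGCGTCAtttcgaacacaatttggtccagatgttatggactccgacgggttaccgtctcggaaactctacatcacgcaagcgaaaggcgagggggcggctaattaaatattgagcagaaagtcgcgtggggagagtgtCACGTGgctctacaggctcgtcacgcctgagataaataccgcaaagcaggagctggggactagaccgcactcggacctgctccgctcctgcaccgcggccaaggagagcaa

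Both windows held both motifs. In Cck, TGCGTCA began 49 bases and the E-box 66 bases before the start, and in Tac1 they began 199 and 61 bases before it. Of 6 motifs searched on both strands, none was found in the windows of Odc1, Hgf and Il11. For Hgf and Il11, which had 2 annotated starts each, this covers the window of the most upstream start only. TGCGTCA was chosen after the Cck and Tac1 promoters had been read, so both genes are left out of its count. Of the 59 higher genes other than Cck and Tac1, 7 held it (11.9%), as did 1 of the 37 lower genes, against 655 of 27025 genes (2.42%) with a promoter in the table and 2.12% of all 32851 promoters. The 27025 genes, here and for the other motifs, were not limited to genes found in these cells. They were not matched for base composition either, so the difference cannot be tied to cluster 1. The 7 were the transcription factor genes Cebpb and Nr4a1, the pteridine enzyme gene Gch1, the granule membrane gene Ptprn, the ferritin gene Fth1, Aig1 and Fetub. The 27 bases around each match are given below on the strand that reads TGCGTCA, and Nr4a1 held 4 matches. In GRCm38.p6 the windows lay at chr2:167688898-167688924 (minus strand) for Cebpb, chr14:47189485-47189511 (plus strand) for Gch1, chr1:75264309-75264335 (plus strand) for Ptprn, chr19:9982646-9982672 (minus strand) for Fth1, chr10:13868977-13869003 (plus strand) for Aig1 and chr16:22920104-22920130 (plus strand) for Fetub. Those of Nr4a1 lay, in the order shown, at chr15:101266601-101266627 (plus strand), chr15:101266621-101266647 (plus strand), chr15:101266765-101266791 (plus strand) and chr15:101266794-101266820 (plus strand). Their distances to the annotated start ran from 235 bases before it in Nr4a1 to 7 bases before it in Cebpb, and the match in Fth1 lay after the start. These letters match neither the full element TGACGTCA nor the AP-1 motif TGANTCA at the same position.
Cebpb: ggcaacgggcTGCGTCAcgctggggcc
Nr4a1: ccgcgctcccTGCGTCAatggaacccc
Nr4a1: gaaccccgcgTGCGTCAcgcgcgcaga
Nr4a1: ccgggccgtgTGCGTCAgtggcgcccc
Nr4a1: cccctctccaTGCGTCAcggagcgctt
Gch1: cggagcctctTGCGTCAtggatctctc
Ptprn: tatgcctattTGCGTCAtactggcgta
Fth1: agcgggatccTGCGTCAggcgagcgct
Aig1: tggcgtcatcTGCGTCAttctgcagcg
Fetub: gctttcttgcTGCGTCAtgcgtgggcg

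The full element TGACGTCA was found in 0 of the 61 higher and 1 of the 37 lower genes, against 2.03% of all genes. AP-1, TGANTCA, was found in 6 and 4 genes (9.84% and 10.8%, against 8.97%), the E-box in 7 and 4 (11.5% and 10.8%, against 8.09%) and the TATA box TATAAA in 9 and 7 (14.8% and 18.9%, against 15.7%). Without Cck and Tac1, the E-box was found in 5 of 59 higher genes (8.47%), near the share of all genes. The CArG box, known from actin and smooth muscle genes, was found in 0 of the 61 higher genes and in 3 of the 37 lower genes (8.11%, against 1.81%), namely Actg1, Cnn2 and Myl6. Their 30-base windows, with the match in capitals, are shown because all 3 encode parts of the actin cytoskeleton. They lay at chr11:120348566-120348595 (minus strand) for Actg1, chr10:79988534-79988563 (plus strand) for Cnn2 and chr10:128493040-128493069 (minus strand) for Myl6, 90, 56 and 50 bases before the start. A match describes the letters of a window and is no evidence that a factor bound there.
Actg1: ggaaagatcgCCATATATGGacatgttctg
Cnn2: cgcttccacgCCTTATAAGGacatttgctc
Myl6: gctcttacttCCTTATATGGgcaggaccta

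Cluster 1 was read as stromal, in part from means over several clusters, which are not values of its own. Of the stromal identity genes listed for cluster 1, 4 were higher and 4 lower. The lower ones included Vim (98.0% of cluster 1), Col1a2 (94.7%) and Col1a1 (67.8%). Pdgfra and Prrx1, markers of fibroblasts and mesenchyme, were not listed for cluster 1. Their recovered mean shares over the clusters that do not list them, cluster 1 among them, were 88.3% and 96.7%. Among the 7 unlisted stromal identity genes, Thy1 lay between Pdgfra and Prrx1. Lum had a mean of 77.1%, Twist1 64.3%, Pdgfrb 62.1% and Ly6c1 30.1%. The same mean was 2.50% for the epithelial gene Epcam, 0.3% for the leukocyte gene Ptprc, 1.20% for the mast cell gene Kit and 0.261% for the glial gene Sox10. Not all members of those lists were low, since S100b of the Schwann and glial list had 44.9% and the pericyte gene Cspg4 29.3%. The other unlisted members lay at 12.6% or less. The 7 lists of markers of other cell types covered epithelium, macrophages, neutrophils, mast cells, endothelium, Schwann cells and pericytes. As 0.374% and 0.344% of all genes tested were listed higher and lower for cluster 1, a list without a listed member says little. Of 8 endothelial symbols, 0 were listed for any FGF2 cluster. For cluster 1, 6 of the 7 lists had no member listed. The exception was Clec4d, a receptor of myeloid cells and 1 of 6 neutrophil symbols, which the authors' deposited table gave in 28.3% of cluster 1, 11.1% of the other cells and 27.7% of cluster 14, the cluster led by S100a9 and S100a8. Those defining neutrophil genes were not listed for cluster 1. S100a8 had a mean share of 12.6% and S100a9 of 3.0% over the unlisted clusters, and the part of such cells in the Clec4d value was not tested. Mcpt8, a granule protease known from mouse basophils, was also higher in cluster 1 in the authors' deposited table (42.7% against 24.3%). Its share was 45.3% in cluster 5 and 44.9% in cluster 7, but 4.70% in cluster 15, which carried 7 mast cell markers.

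The higher genes were mostly genes that many FGF2 cells had and cluster 1 had more of. Their median share in the authors' deposited table was 86.6% in cluster 1 and 69.2% in the other cells, and 57 of the 75 were found in at least 50% of the other cells. Differences between the shares ran from 0 to 34.4 percentage points with a median of 15.5. The median natural log ratio was 0.33 with a range of 0.25 to 0.84, so that 21 genes reached a ratio of 1.5-fold and Cck, Odc1 and Tac1 alone reached 2-fold. The lower genes had a median natural log ratio of -0.34, down to -1.45, with 21 genes at 1.5-fold or more and Tagln, Acta2, Mgp and Actg1 at 2-fold or more. Lrp1 (0.25) and Myh9 (-0.25) were the smallest listed natural log ratios in each direction.

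**Figure D1:**
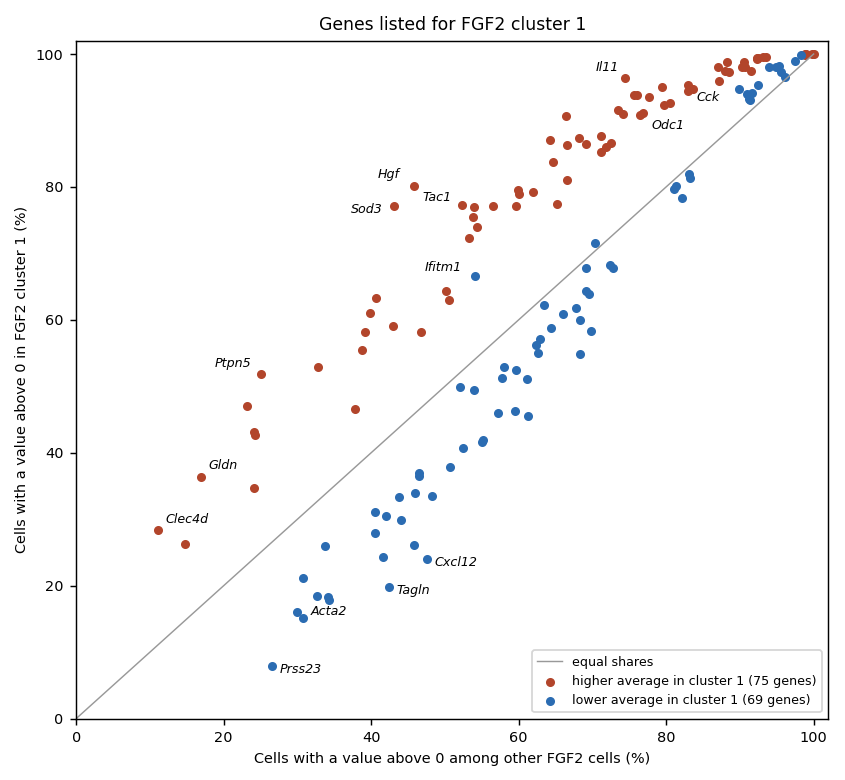
Share of cells with a value above 0 for the 144 genes listed for FGF2 cluster 1, in cluster 1 (vertical axis, %) against all other FGF2 cells (horizontal axis, %), with 1 point per gene, red for the 75 genes with a higher average and blue for the 69 with a lower average. Most red points lie in the upper right, with Hgf and Sod3 farthest above the line of equal shares (34.4 and 34.0 points), and 15 blue points lie on or above the line.

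The peptide genes Cck and Tac1 had the highest ratios along with Odc1. Cck (chr9:121489824-121495694, GRCm38.p6) was found in 95.4% of cluster 1 and 82.9% of the other cells in the authors' deposited table, a ratio of averages of 2.32-fold. Cck was a widespread gene, since the same table gave it in 97.6% of cluster 7, 91.0% of cluster 3, 90.5% of cluster 6, 89.2% of cluster 4, 85.2% of cluster 0 and 69.2% of cluster 2. The lowest listed Cck shares in the authors' deposited table were 48.9%, 42.2% and 35.5%, in cluster 10, the mast cell-led cluster 15 and the glial-like cluster 16. Shares in cell types that should lack a gene may count free RNA, at depths that are unknown here. On the scale of the level relative to the library, which is the average plus the offset of 1 in a cluster over that in the whole library, Cck stood at 1.96 in cluster 1, 3.13 in cluster 7 and 1.28 in cluster 3, and below 1 in the other clusters that list it. For Cck, cluster 1 thus came after cluster 7 by share and by level.

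Tac1 (chr6:7555061-7562978), which encodes substance P and neurokinin A, separated the clusters more by share. It was found in 77.3% of cluster 1 against 52.3% of the other cells in the authors' deposited table, a ratio of 2.08-fold. Next among the clusters that list it came 72.8% in cluster 7, 62.6% in cluster 5 and 56.2% in cluster 9. Clusters 2, 3, 4 and 8 held 45.5% to 49.4% in the authors' deposited table. Over the clusters that do not list Tac1, cluster 0 among them, its recovered mean share was 65.0%. In the mast cell-led and glial-like clusters 15 and 16, Tac1 had shares of 14.1% and 9.70% in the authors' deposited table. Its level relative to the library was 1.80 in cluster 1, 1.55 in cluster 7 and 1.40 in cluster 5, so that cluster 1 had the highest listed value on both scales. Of 16 symbols of neuropeptide and secretory granule genes, Cck and Tac1 were the 2 listed for cluster 1. Both were higher, beside 0.374% of all genes tested that were listed higher. Cpe, a peptide-processing enzyme, and Nptx1 were listed for other clusters, with their largest shares in cluster 4 (99.0%) and cluster 0 (50.5%) of the authors' deposited table. Ptprn, a granule membrane protein of neuroendocrine cells that was not on the list, was found in 86.3% of cluster 1 and 66.6% of the other cells in the authors' deposited table, with 95.1% in cluster 7.

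The polyamine genes Odc1 and Sat1 were higher too. Odc1 (chr12:17544808-17551502), the rate-limiting enzyme of polyamine synthesis, was found in 91.2% of cluster 1 and 76.8% of the other cells in the authors' deposited table, a ratio of 2.10-fold. Cluster 7 had 90.7%, cluster 4 87.6%, cluster 5 86.4%, cluster 8 75.0% and cluster 2 66.5% in the authors' deposited table. The Odc1 level relative to the library was 1.82 in cluster 1, 1.47 in cluster 7 and 1.27 in cluster 5, while cluster 4, despite its share, was at 0.65. Sat1, which acetylates spermidine and spermine for breakdown and export, was found in 99.2% against 92.3% of cells at 1.58-fold in the authors' deposited table. Of 10 polyamine symbols 5 were listed somewhere in the FGF2 library. Odc1 and Sat1 were the 2 listed for cluster 1, beside 0.374% of all genes tested that were listed higher.

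Hgf (chr5:16553495-16619439) had the largest difference between shares of all 144 genes. It was found in 80.2% of cluster 1 and 45.8% of the other cells in the authors' deposited table, a difference of 34.4 points and a ratio of 1.93-fold. Cluster 7 had 85.8%, and the next values in the authors' deposited table were 50.9% in cluster 6, 47.8% in cluster 9, 45.4% in cluster 4, 40.3% in cluster 0 and 21.8% in cluster 2. Non-stromal clusters of the authors' deposited table held Hgf in 12% (epithelial-like cluster 11), 10.9% (cluster 15) and 3.20% (cluster 16) of their cells. The level relative to the library was 1.71 in cluster 1 and 1.73 in cluster 7, and no other cluster was listed above 1. Over the clusters that do not list it, the recovered mean share of Hgf was 54.8%.

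Il11 (chr7:4772373-4782907), an interleukin 6 family cytokine made by activated fibroblasts, was found in 96.4% of cluster 1 and 74.4% of the other cells in the authors' deposited table, a ratio of 1.91-fold. Cluster 7 had it in 99.3% of cells, clusters 6 and 4 in 81.5% and 81.4%, and cluster 0 in 76.1% in the authors' deposited table. Cluster 2 had it in 56.6% and cluster 15 in 21.9% of cells there. Over the clusters that do not list it, the recovered mean share of Il11 was 85.4%. Its level relative to the library was 1.69 in cluster 1 but 4.28 in cluster 7, the widest gap between the 2 clusters among the 5 markers. Il11 was the only member listed for cluster 1 of 13 symbols of the interleukin 6 family and its receptors. Beside it, 0.374% of all genes tested were listed higher.

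Further growth factors and cytokine receptors were listed. Of 22 paracrine growth factor symbols, Hgf and Fgf7 were listed for cluster 1, both higher, beside 0.374% of all genes tested that were listed higher. Fgf7, keratinocyte growth factor, was found in 93.8% against 76.1% of cells in the authors' deposited table, with 97.1% in cluster 7 and 97.0% in cluster 5. Ereg, epiregulin, was the 1 of 7 EGF receptor ligands listed, in 87.1% against 64.2% of cells at 1.73-fold in the authors' deposited table, with 95.6% in cluster 7, 63.4% in cluster 0 and 36.7% in cluster 2. Bmp2, a bone morphogenetic protein and the 1 listed of 16 BMP and Id symbols, had 43.1% against 24.1% in the authors' deposited table. Its share there was 48.4% in cluster 0 but 16.3% in cluster 7 and 10.9% in cluster 4, so Bmp2 did not follow the order of the 5 markers. The interleukin 33 receptor gene Il1rl1 was found in 58.2% against 46.8% of cells in the authors' deposited table, with 86.7% in cluster 12, 60.3% in cluster 3, 59.7% in cluster 7 and 26.9% in cluster 5.

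Chemokines went in both directions, with 2 of 16 symbols higher and 1 lower, beside 0.374% and 0.344% of all genes tested. Ccl8 (64.3% against 50.1%) and Cxcl1, which attracts neutrophils (34.7% against 24.1%), were higher in the authors' deposited table. Ccl8 had its largest share there in cluster 8, at 80.3%, and Cxcl1 in cluster 5, at 42.5%. Cxcl12, a chemokine of stroma that retains blood cell precursors, had the largest drop in share of the 69 lower genes, with 24.0% of cluster 1 against 47.6% of the other cells in the authors' deposited table. It stood at 76.2% in cluster 4, 62.9% in cluster 8, 51.1% in cluster 2, 37.5% in cluster 0 and 36.5% in cluster 7 of the authors' deposited table, so that cluster 1 was the lowest listed stromal cluster.

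Genes downstream of FGF and ERK were mostly not listed for cluster 1, beside 0.374% and 0.344% of all genes tested that were listed higher and lower. Of 17 symbols, Dusp6, a phosphatase that switches off ERK, and the ETS factor gene Etv1 were higher and the cyclin gene Ccnd1 was lower. Dusp6 was found in 79.2% against 62.0% of cells and Etv1 in 85.2% against 71.2% in the authors' deposited table, both at 1.29-fold. Ccnd1 had 59.9% against 68.3%, at 1.45-fold lower, in the authors' deposited table. Immediate early genes were listed for some FGF2 cluster in 17 of 18 cases, but for cluster 1 only in the cases of Ier3 and Nr4a1. Ier3 was found in 99.4% against 92.3% of cells at 1.63-fold, and Nr4a1, a nuclear receptor, in 61.0% against 39.9% at 1.30-fold, in the authors' deposited table. Nr4a1 reached 85.6% in cluster 7 of the authors' deposited table.

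Transcription factors and surface genes of fibroblasts were among the higher genes. Twist2, a mesenchymal transcription factor, was found in 90.7% of cluster 1 and 66.4% of the other cells in the authors' deposited table. Cluster 7 had Twist2 in 96.6%, cluster 5 in 80.4%, cluster 6 in 75.1%, cluster 4 in 72.5%, cluster 0 in 64.3% and cluster 2 in 51.9% of cells in the authors' deposited table. Cd34 (52.9% against 32.8%) and Ly6a (96.0% against 87.2%), surface genes of fibroblast progenitors, were higher in the authors' deposited table, as was the proteoglycan gene Dcn (98.0% against 90.7%). On the list of 18 stromal identity genes, 4 were thus higher and 4 lower, beside 0.374% and 0.344% of all genes tested. The 4 lower ones were Vim, Vcam1, Col1a1 and Col1a2. Vcam1, an adhesion molecule, was found in 29.9% against 44.1% of cells in the authors' deposited table, with 91.0% in cluster 4.

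Genes of redox and iron handling were higher in part. Of 15 antioxidant and metallothionein symbols, 2 were higher and 1 lower, beside 0.374% and 0.344% of all genes tested. Sod3, the secreted superoxide dismutase, differed by 34.0 points in the authors' deposited table, with 77.1% of cluster 1 against 43.1% of the other cells. It was at 97.1% in cluster 7 and 81.5% in cluster 5, and at 24.3% to 40.3% in clusters 0, 2, 3 and 4 of the authors' deposited table. Sod2, the mitochondrial superoxide dismutase, had 86.6% against 72.5% in the authors' deposited table, with 96.8% in cluster 5. Gsta4, a glutathione transferase and the third listed of 15 antioxidant and metallothionein symbols, was lower, with 46.0% against 57.2% at 1.75-fold in the authors' deposited table. Fth1, the ferritin heavy chain, was found in 100% and 99.8% of cells and differed by level alone, at 1.35-fold in the authors' deposited table. Trf, transferrin, had 46.6% against 37.8% and Lcn2, which binds iron-carrying siderophores, 63.3% against 40.7% in the authors' deposited table. Lcn2 was also found in 78.0% of the epithelial-like cluster 11 of the authors' deposited table.

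Proteases and their inhibitors were higher in 3 of 20 symbols and lower in 1, beside 0.374% and 0.344% of all genes tested. Mmp3, stromelysin 1, was found in 99.9% of cluster 1 and 98.8% of the other cells at 1.45-fold in the authors' deposited table. Mmp2, a gelatinase, had 98.8% against 90.6%, and Serpine2, an inhibitor of thrombin and plasminogen activators, 81.0% against 66.6% in the authors' deposited table. The lower one was Adamts1, with 27.9% against 40.5% in the authors' deposited table. Slpi, an inhibitor of leukocyte elastase, was sixth among the higher genes, with 59.1% against 42.9% at 1.80-fold in the authors' deposited table, and its share there was 78.3% in cluster 7 and 58.8% in cluster 5.

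**Figure D2:**
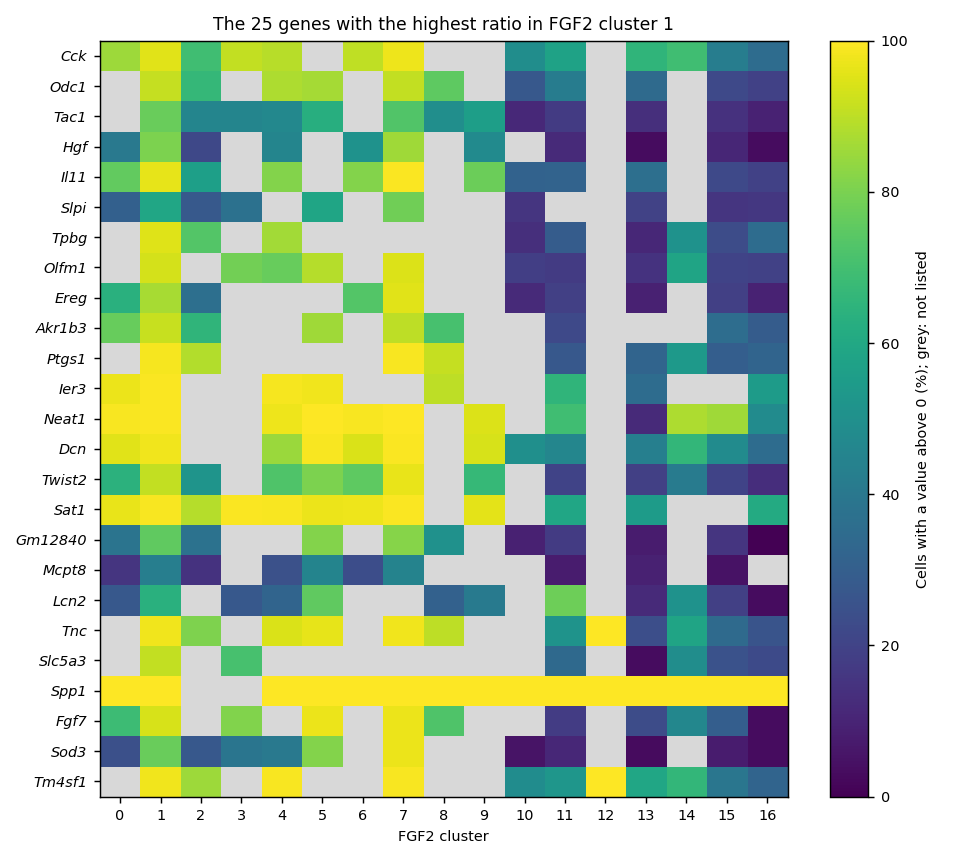
Share of cells with a value above 0 (colour, %) for the 25 genes with the highest ratio in FGF2 cluster 1 (rows) in each of the 17 FGF2 clusters (columns), grey where the authors' deposited table does not list the gene for a cluster. Columns 1 and 7 are bright for the same rows from Cck to Twist2, apart from Tpbg and Ier3, which are grey in column 7, and Slpi, which is paler, and columns 10, 11, 13, 15 and 16 are dark for most rows.

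The higher genes were also sorted by the cluster that had their largest listed share. Among the clusters that list a gene, cluster 1 had the largest share for 20 of the 75 higher genes, another cluster had it for 51, and 4 were tied at 100%, namely Spp1, Ctsl, Crabp1 and Fth1. Cluster 7 had the largest share for 28, cluster 5 for 7 and cluster 0 for 5. The 20 genes of cluster 1 included Odc1, Tac1, Tpbg, Akr1b3, Ier3, Slc5a3, Agtr2, Gch1, Pdpn, Serpine2, Idh1, Dusp6 and Ptpn5. Unlisted clusters had no value of their own and were left out of this count. The count thus depends on which clusters list a gene, and does not show how far cluster 1 stood apart. For Slc5a3 the recovered mean share over the unlisted clusters was 78.6%, above its largest other listed share of 70.9%.

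**Figure D3:**
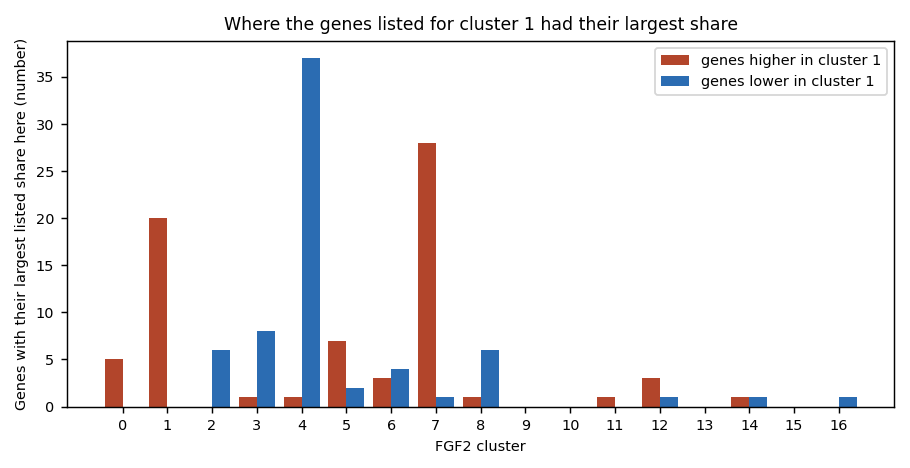
Number of genes listed for FGF2 cluster 1 (vertical axis) by the FGF2 cluster in which they had their largest listed share (horizontal axis), red for genes higher and blue for genes lower in cluster 1. The tallest red bars are cluster 7 (28) and cluster 1 (20), and the tallest blue bar is cluster 4 (37).

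For 12 of the 75 no other cluster was listed with a higher average. These were Tpbg, Slc5a3, Agtr2, Gldn, Hspa4l, Fth1, 1110008P14Rik, Pkd2, Gng8, Idh1, Dusp6 and Ptpn5. Tpbg, the oncofetal trophoblast glycoprotein 5T4, was found in 95.0% of cluster 1 and 79.5% of the other cells at 1.80-fold in the authors' deposited table, with 86.1% in cluster 4 and 73.4% in cluster 2. Slc5a3, a transporter of myo-inositol, had 90.9% against 74.2% in the authors' deposited table, with 70.9% in cluster 3. Akr1b3, aldose reductase, another gene of organic osmolytes, was higher in both clusters 1 and 7, with 91.6% of cluster 1 in the authors' deposited table. Agtr2, the type 2 receptor of angiotensin II, had 90.8% against 76.4% in the authors' deposited table, with 57.3% in cluster 4 as its next listed share.

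Ptpn5, a tyrosine phosphatase known from the brain, differed by 26.7 points in the authors' deposited table, with 51.8% of cluster 1 against 25.1% of the other cells. The only other cluster listed for Ptpn5 in the authors' deposited table was cluster 13, with 0%. Gldn, gliomedin, was the single gene of the 75 that no other cluster lists, with 36.4% of cluster 1 against 16.9% of the other cells in the authors' deposited table. Hspa4l, a heat shock protein, had 77.0% against 53.9% in the authors' deposited table, and Hsph1, a relative of it, 77.2% against 59.7% with 83.2% in cluster 7. Idh1, the cytosolic isocitrate dehydrogenase, had 86.0% against 71.9% in the authors' deposited table.

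Contractile genes held the lowest ratios, those of Tagln and Acta2. Of 22 symbols of contractile and TGF-beta response genes, 16 were listed in the FGF2 library, 6 of them for cluster 1. All 6 were lower, beside 0.344% of all genes tested that were listed lower. Their median natural log ratio was -0.52, beside -0.34 over the 69 lower genes. Tagln, transgelin, was found in 19.8% of cluster 1 and 42.4% of the other cells in the authors' deposited table, at 4.28-fold lower. Acta2, smooth muscle actin, had 18.3% against 34.2% at 3.84-fold lower in the authors' deposited table. The remaining members were Thbs1 (1.68-fold lower), Tpm1 (1.67), Lox (1.44) and Tpm2 (1.32) in the authors' deposited table.

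Several other stromal clusters had low shares of Acta2 and Tagln too, and cluster 4 had the largest shares of both. It held Acta2 in 83.7% and Tagln in 95.9% of its cells in the authors' deposited table. Acta2 was at 15.8% in cluster 5, 18.7% in cluster 0, 22.3% in cluster 2, 25.7% in cluster 3 and 27.9% in cluster 7, and Tagln at 20.9%, 26.3% and 34.6% in clusters 5, 0 and 7 of the authors' deposited table. On the level relative to the library, Tagln was 0.26 in cluster 1, 0.28 in cluster 0, 0.29 in cluster 5 and 4.58 in cluster 4. The mast cell-led cluster 15 held Acta2 in 12.5% of its cells in the authors' deposited table, against 18.3% of cluster 1, while the Acta2 level relative to the library was 0.54 in cluster 15 and 0.29 in cluster 1. Cluster 13, with a median listed share of 12%, held Acta2 in 76.8% and Tagln in 88.7% of cells in the authors' deposited table. By level relative to the library it stood above cluster 4, at 8.49 against 4.60 for Acta2 and 8.12 against 4.58 for Tagln.

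Some lower genes were present in nearly all cells of cluster 1. Actg1 was at 2.0-fold lower, Actb at 1.80-fold and Tmsb4x, which binds actin monomers, at 1.67-fold in the authors' deposited table. Their shares of 96.6%, 99.9% and 98.9% in cluster 1 were at least as large as the 96.1%, 98.3% and 97.5% in the other cells of the authors' deposited table. The same held for 15 of the 69 lower genes, among them Tpm1, Myl6, Vim and Col1a2. Vim, the intermediate filament of mesenchyme, was in 98.0% against 94.9% of cells at 1.71-fold lower in the authors' deposited table. Ifitm1, an interferon-induced membrane protein, was the extreme, with the larger share in cluster 1 (66.6% against 54.1%) and the lower average (1.30-fold) in the authors' deposited table. Its level relative to the library was 12.3 in cluster 14, a cluster of 0.651% of the FGF2 cells. Actb, Actg1, Tmsb4x and Fth1 have close copies in the genome, and the sources used here do not say how reads that match several genes were counted.

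Collagens and other matrix genes were lower in 7 of 22 symbols and higher in 1, Dcn, beside 0.344% and 0.374% of all genes tested. Mgp, matrix Gla protein, an inhibitor of calcification, stood out at 2.77-fold lower with shares of 52.5% against 59.7% in the authors' deposited table. Its share was 90.6% in cluster 8 and 76.2% in cluster 7 but 38.3% in cluster 5 of the authors' deposited table, and its level relative to the library was 6.46 in cluster 8 and 0.40 in cluster 1. Col3a1, a fibrillar collagen, was found in 17.9% against 34.3% of cells, Col12a1 in 18.4% against 32.6%, Col8a1 in 24.3% against 41.6% and Col5a2 in 45.6% against 61.2% in the authors' deposited table. Col1a1 and Col1a2, the chains of type I collagen, differed little by share (67.8% against 72.8% and 94.7% against 89.9%) and were 1.5-fold and 1.41-fold lower in the authors' deposited table. Cluster 0 also lists Col1a1, Col3a1, Col5a2 and Col12a1 as lower, and does not list Col1a2, Col8a1 and Mgp. The natural log ratios of Col5a2 and Col12a1 were -0.51 and -0.53 in cluster 0, and -0.48 and -0.37 in cluster 1. Those of Col1a1 and Col3a1 were -0.33 and -0.34, and -0.41 and -0.43. Col4a1, a basement membrane collagen and the 1 listed of 15 basement membrane symbols, had 71.5% against 70.4% and a lower average in the authors' deposited table.

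Hypoxia and glycolysis genes were lower in 5 of 23 symbols and higher in none, beside 0.344% of all genes tested that were listed lower. Ero1l, an oxidase of the endoplasmic reticulum induced by low oxygen, was found in 52.9% against 58.0% of cells at 1.56-fold lower in the authors' deposited table. Egln3, a prolyl hydroxylase of the oxygen response, had 15.1% against 30.7%, Hk2, hexokinase 2, 41.6% against 55.0%, and Bnip3 58.8% against 64.4% in the authors' deposited table. Pgk1 had 94.2% against 91.6% and a lower average in the authors' deposited table. All 5 had larger listed shares elsewhere. Cluster 3, led by Ero1l, had Ero1l in 94.3%, Bnip3 in 95.2% and Egln3 in 76.1% of its cells in the authors' deposited table. Clusters 0 and 7 also list Ero1l, Pgk1, Bnip3 and Egln3 as lower, and neither lists Hk2. The natural log ratio of Ero1l was -0.55 in cluster 0, -0.45 in cluster 1 and -0.40 in cluster 7.

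Other lower genes differed by share as well. Prss23, a serine protease, was found in 7.90% of cluster 1 and 26.6% of the other cells in the authors' deposited table, with 81.7% in cluster 4. Cavin2, a protein of caveolae, had 26.1% against 45.8% at 1.92-fold lower, with 91.8% in cluster 4, and Stmn2, a microtubule regulator, 16.1% against 30.0% with 62.6% in cluster 4, in the authors' deposited table. Lpl, lipoprotein lipase, had 33.9% against 46.0% in the authors' deposited table, with 71.7% in cluster 5. No gene was listed for cluster 1 from the lists of 21 cell cycle, 20 ribosomal protein, 12 mitochondrially encoded and 6 IGF binding protein genes. Of these, 19, 20, 11 and 6 were listed for at least 1 of the 17 FGF2 clusters. As 0.374% and 0.344% of all genes tested were listed higher and lower for cluster 1, this absence is no result about these genes.

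**Figure D4:**
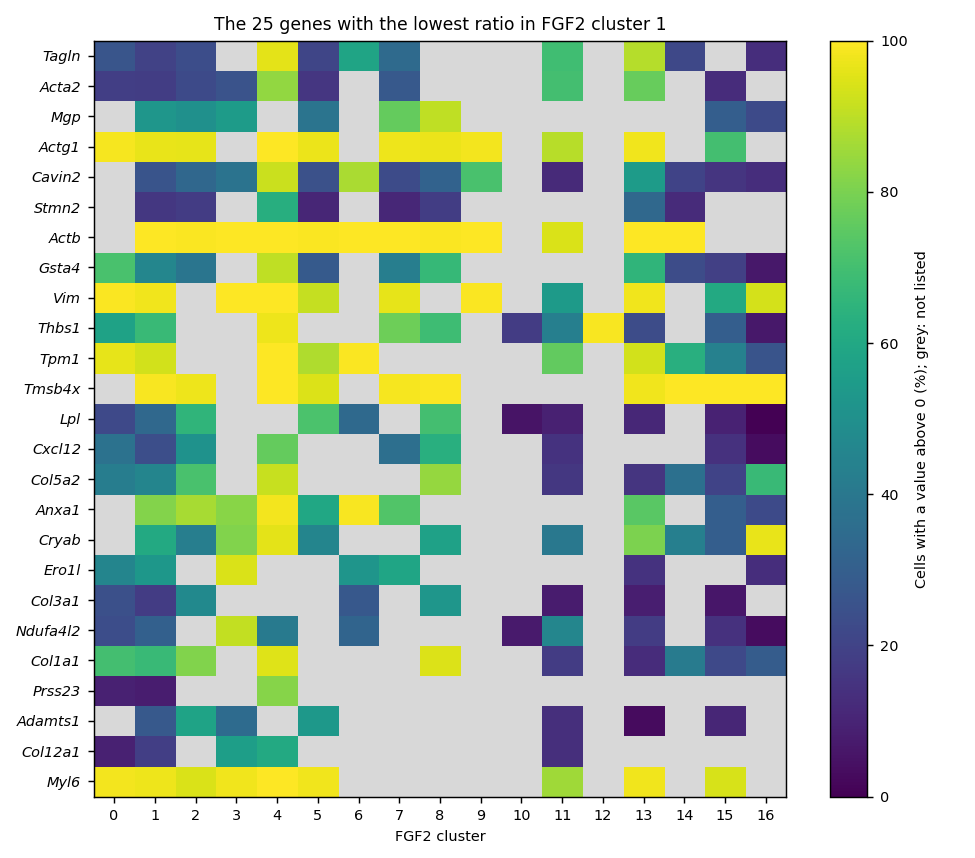
Share of cells with a value above 0 (colour, %) for the 25 genes with the lowest ratio in FGF2 cluster 1 (rows) in each of the 17 FGF2 clusters (columns), grey where the authors' deposited table does not list the gene for a cluster. Column 4 is bright for most rows, such as Tagln (95.9%) and Cavin2 (91.8%). Columns 1 and 5 are dark for Tagln and Cavin2 but bright for other rows, such as Actb (99.9% and 99.3%) and Tpm1 (93.1% and 88.1%).

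Across the other FGF2 clusters the 144 genes were listed often, and these comparisons share cells with cluster 1, so they are set side by side without a test. Cluster 7 (6.05% of cells) lists 44 of the 75 higher genes, 39 with a higher and 5 with a lower average, beside 0.883% and 0.658% of all genes tested, and 34 of its shares lay above those of cluster 1. The 5 exceptions were Ctsl, Prxl2a, Bmp2, Ly6a and Hmga2. Cluster 7 lists 38 of the 69 lower genes, 33 of them lower too, while Col4a1, Pla1a, Spon2, Thbs1 and Mgp were higher there. Cluster 5 (7.33% of cells) lists 43 of the 75, 33 higher and 10 lower, beside 0.883% and 0.583% of all genes. The 10 were Spp1, Gch1, Il1rl1, Crabp1, Slc14a1, Fth1, Prkg2, Pdpn, Ly6a and Hmga2. Neither Hgf nor Il11 nor Cck was listed for cluster 5.

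Cluster 0, the largest with 16.4% of cells, differed from cluster 1 mainly in the higher genes. It lists 39 of them, 12 higher and 27 lower, beside 0.289% and 0.713% of all genes. Cck, Hgf, Il11, Ereg, Twist2 and Dcn were lower in cluster 0, while Mmp3, Ctsl, Gch1, Crabp1, Bmp2, Hmga2 and Cd34 were higher in both. Crabp1 binds retinoic acid and Hmga2 is a chromatin protein of embryonic and growing cells. Of the 69 lower genes cluster 0 lists 37, 34 of them lower too, and Ccnd1, Vim and Gsta4 were higher there.

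Cluster 4, the contractile cluster with 7.80% of cells, was opposite to cluster 1 for nearly all genes listed for both. It lists 44 of the 75 higher genes, all 44 with a lower average, beside 0.813% of all genes tested. It lists 49 of the 69 lower genes, 44 of them with a higher average, beside 0.982%, and had the largest listed share for 37 of the 69. The 5 genes lower in both were Gpi1, Fmo2, Ifitm1, Mpzl2 and Ndufa4l2. Clusters 5, 0 and 1 had the smallest listed share among stromal clusters for 20, 18 and 15 of the 69 genes.

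The control library gives the same genes without FGF2, over all its cells, which include epithelial, glial, macrophage and endothelial clusters. Control cluster 4, with 10.6% of the control cells, had a median listed share of 10.9%. FGF2 clusters 10 and 13, with medians of 14.4% and 12%, held 3.51% and 1.41% of the FGF2 cells. The part of such clusters in the library shares was not tested. With 1 library per group, FGF2 and all other differences between the libraries cannot be told apart, and the recovered shares of the whole libraries are given as description. The control library lists 57 of the 75 higher genes and 68 of the 69 lower genes, beside 76.0% of all 3058 genes of the FGF2 table. Cck, Hgf, Slpi, Akr1b3, Sod3, Nr4a1, Etv1 and Ptpn5 were among the 18 higher genes for which no control value was used here. The share was larger with FGF2 for 54 of the 57, and for 14 of the 68, beside 890 of 2323 genes (38.3%). Both sets were chosen by their averages in FGF2 cluster 1, which can tilt these counts and the medians that follow. The 2323 genes as a whole were not chosen by that cluster. Median shares in the control and FGF2 libraries were 50.5% and 77.5% for the 57, 82.4% and 60.6% for the 68, and 65.9% and 58.0% for all genes in both.

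Il11 and Tac1 differed widely between the libraries. Over the whole libraries, Il11 was found in 11.8% of control cells and 77.5% of FGF2 cells, Tac1 in 11.4% and 55.9%, and Odc1 in 61.6% and 78.8%. Among the 57 higher genes, which were chosen in the FGF2 library, 21 were found in the control library at most 0.5 times as often as in the FGF2 library, beside 100 of all 2323 genes in both (4.3%). Examples are Gch1 (17.8% and 70.9%), Hspa4l (19.9% and 57.2%) and Ptprn (23.2% and 69.4%). Among the lower genes, Prss23 was at 73.1% and 23.9% and Adamts1 at 77.8% and 38.7%, while Mgp (29.8% and 58.7%) and Fmo2 (18.8% and 63.4%) had the larger share with FGF2.

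**Figure D5:**
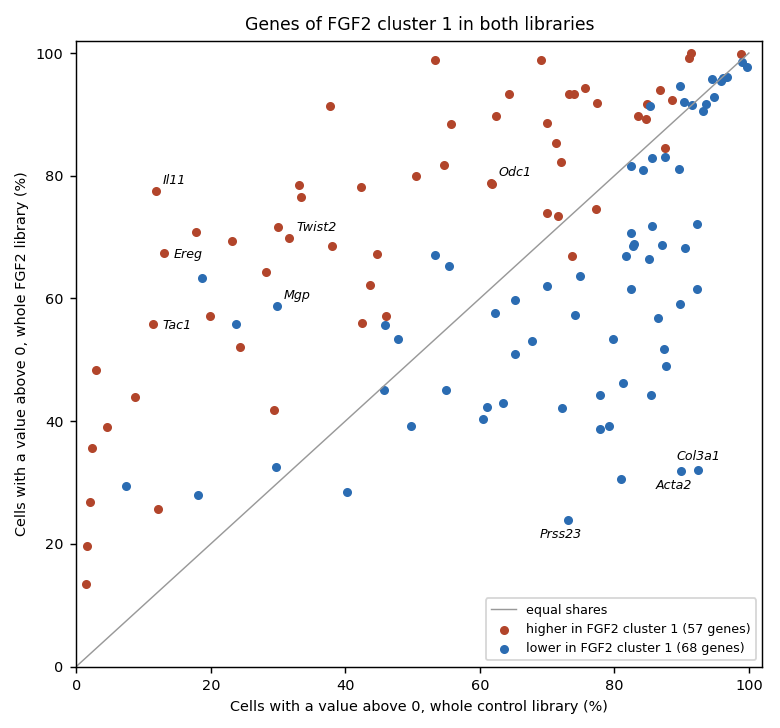
Share of cells positive for a gene in the whole FGF2 library (vertical axis, %) against the whole control library (horizontal axis, %), recovered from the authors' deposited tables, for the genes of FGF2 cluster 1 listed in both, red for 57 higher and blue for 68 lower genes. All but 3 of the red points lie above the line of equal shares, with Il11, Ereg and Tac1 at the upper left, and 54 of the blue points lie below it.

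Within the control library, control cluster 12 lists more of the 75 higher genes as higher than any other control cluster. This cluster held 0.828% of the control cells and was led by Ccl2, Mt1 and Hmox1. It lists 28 of the 75 higher genes as higher (37.3%, against 2.50% of all genes tested there), which is 5.87% of its 477 higher genes, and 3 as lower. It lists 33 of the 69 lower genes as lower (47.8%, against 2.02%) and 8 as higher. Control clusters 2 and 1 list 18 and 16 of the 75 as higher (24.0% and 21.3%, against 1.3% and 1.25%), which is 7.26% of 248 and 6.69% of 239 higher genes. These 2 clusters list 31 and 29 of the 69 lower genes as lower, against 0.75% and 0.965% of all genes. Control cluster 5, led by Acta2, lists 0 of the 75 as higher and 18 as lower, and 28 of the 69 lower genes as higher, against 0.855% of all genes listed higher and 1.09% listed lower there.

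Of the 5 markers, Tac1, Il11 and Odc1 had control values. In the authors' deposited table for the control library, Tac1 was listed for control cluster 1 alone, with 37.3% of its cells. Il11 was listed for control cluster 6 (39.3%) and control cluster 12 (31.7%), and Odc1 was also higher in control cluster 12 (75.6%) in the authors' deposited table. Ereg and Twist2 were listed for control cluster 12 alone, with 48.8% and 58.5% of its cells in the authors' deposited table. Dcn reached 100% of cells in control clusters 1 and 12 of the authors' deposited table.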

How the data were processed

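The deposited tables used here were 2, each comparing the clusters of 1 library. The submitters' processing notes name Cell Ranger 4.0 and mm10. The sources used here do not give filters on cells, doublet treatment, normalization, clustering or the test. Per the file headers, the tables hold a log ratio of averages, read as the natural log with an offset of 1. This base was checked on genes with no positive cell in several clusters (median coefficient of variation 0.000844% over 5 FGF2 genes, against 0.00563% with base 2). Shares of cells, deposited by the authors as fractions, are given in percent. The p-values deposited by the authors treat cells as replicates and are not printed. Cell barcodes, counts per cell and a table of integrated values were not used here.

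A gene's share over a library is the mean of its 2 listed shares, weighted by the cluster's part of the cells, and must come out alike for each cluster. Least squares over 1490 FGF2 and 2077 control genes gave each cluster's part (residual root mean square 0.0242 and 0.0238 points), each gene's share in the whole library and its level relative to the library. The parts summed to 99.95% in the FGF2 library. The step was tested on simulated tables of the same shape. Promoters were searched in RefSeq, GRCm38.p6. Python 3.11.15, numpy 2.4.6, pandas 2.3.3 and matplotlib 3.10.9 were used. Genes were named by fixed rules: the 20 highest and 12 lowest ratios, up to 4 listed members of each of 29 gene lists, the 5 largest differences in share in each direction, and genes higher in no other cluster. Further genes were named after their values were seen, such as Ptprn, Gch1, Ifitm1, Hsph1 and those named as exceptions or by promoter motif. The members and lists were chosen with earlier results of these data known. The design had been laid out for other units, and no test was made because each group was 1 library.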

Additional observations from a re-analysis of the deposited data

How the results depend on the processing

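Of the 75 higher genes, 11 had a natural log ratio of at least 0.5, 57 had shares at least 10 points apart and 75 had an adjusted p-value of the authors under 0.05. Of the 69 lower genes the numbers were 12, 28 and 66. The part of cells in cluster 1 was 14.1% with genes listed in at least 2 or at least 3 clusters, or with shares at least 20 points apart. Cluster 1 had the largest listed share for 20 of the 75 genes over all clusters, the largest level relative to the library for 20, and the largest share for 21 over the 11 clusters left without 2 clusters of low shares and 4 non-stromal clusters. By level, cluster 7 was largest for 19 and cluster 5 for 17. No paired analysis was possible because each group was 1 library. No library could be left out for the same reason. Depth per cell, cells per cluster and free RNA are unknown, so no interval can be set around a share, and a gene found in nearly all cells can differ by level alone.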
